A study of Homo sapiens with 7 samples.

Results

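Replication-dependent histone genes supply the histone proteins that package newly made DNA in S phase. The members described here are the RefSeq GRCh38 protein-coding genes on chromosomes 1 to 22 with symbols H1-1 to H1-6, or with symbols that start with H2AC, H2BC, H3C or H4C and a number. The rule matched 84 symbols, of which 13 were pseudogenes and 1, H2BC6-AS1, was a long non-coding antisense gene that encodes no histone and was left out. The remaining 70 genes, of 19122 protein-coding genes on these chromosomes, comprised 6 genes for the linker histone H1 and 17 H2A, 19 H2B, 13 H3 and 15 H4 genes for the core histones. Of these, 55 lie on chromosome 6, 11 in a cluster on chromosome 1 from H2BC18 to H2AC21 (chr1:149782689-149887965), 2 farther along chromosome 1 (H2AC25 and H2BC26), 1 on chromosome 12 (H4C16) and 1 on chromosome 21 (H2BC12L). The rule uses symbols, gene type and position only, and the gene set was picked with earlier results of these data known.

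Chromatin immunoprecipitation and sequencing (ChIP-seq) was performed in untreated OCI-Ly7 cells, a single line derived from a human diffuse large B-cell lymphoma, with antibodies against 6 proteins and with 1 input library as the control. OCA-B is a lymphoid coactivator that docks on the octamer-binding factors OCT2 and OCT1, MED1 belongs to the Mediator complex, and the acetyltransferases CREBBP and EP300 are paralogs. With 1 library for each protein there are no replicates, no difference could be tested, and genes are described rather than treated as replicates. The lists of peaks were those the authors deposited, and a gene was counted as occupied where a peak reached within 1 kb of its start or end, by at least 1 base.

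Most of these genes are short and without introns, their mRNAs end in a stem-loop in place of a poly(A) tail, and they are transcribed together in S phase at nuclear bodies organised by NPAT. H2B promoters are known for a conserved octamer upstream of the TATA box, through which OCT1 drives their S-phase transcription, whereas H4 promoters are known for a site bound by HINFP and H1 promoters for an AAACACA box. H2A and H2B genes often stand back to back and share the DNA between their starts.

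The letters of 8 promoters are shown because they carry the contrasts of the results: H2B promoters with the octamer close to the start (H2BC21, H2BC11, H2BC9), an H2B promoter without an exact octamer (H2BC15), an H2A promoter whose octamer points the other way (H2AC6), and 1 promoter each of H4, H1 and H3. All run from 140 bases before the annotated start to 9 bases after it, 5′ to 3′ in the direction of the gene, as RefSeq gives them on GRCh38.p14. Capitals mark an exact octamer (ATGCAAAT, or ATTTGCAT when read from the other strand) and an exact TATA box (TATAAA) in the H2A, H2B and H4 genes. In H1-4 they mark the H1 box (AAACACA) and the TATA box, and in H3C2 the CCAAT boxes and the TATA box.
H2BC21: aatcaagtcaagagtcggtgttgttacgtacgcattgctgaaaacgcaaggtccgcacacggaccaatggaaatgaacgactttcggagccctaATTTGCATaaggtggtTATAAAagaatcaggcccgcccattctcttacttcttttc
H2BC11: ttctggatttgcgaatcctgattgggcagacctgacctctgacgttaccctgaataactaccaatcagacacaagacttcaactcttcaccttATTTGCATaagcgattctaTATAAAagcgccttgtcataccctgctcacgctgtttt
H2BC9: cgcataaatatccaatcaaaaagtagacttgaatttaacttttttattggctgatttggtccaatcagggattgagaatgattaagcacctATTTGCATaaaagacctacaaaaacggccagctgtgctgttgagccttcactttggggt
H2BC15: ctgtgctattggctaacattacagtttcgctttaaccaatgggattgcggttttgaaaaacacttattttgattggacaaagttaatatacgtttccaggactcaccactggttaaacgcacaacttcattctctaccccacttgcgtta
H2AC6: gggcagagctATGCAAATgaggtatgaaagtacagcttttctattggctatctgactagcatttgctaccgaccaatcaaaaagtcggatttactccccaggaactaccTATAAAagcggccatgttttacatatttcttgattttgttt
H4C12: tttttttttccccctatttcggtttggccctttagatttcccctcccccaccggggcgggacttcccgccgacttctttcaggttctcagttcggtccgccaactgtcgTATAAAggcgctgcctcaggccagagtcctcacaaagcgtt
H1-4: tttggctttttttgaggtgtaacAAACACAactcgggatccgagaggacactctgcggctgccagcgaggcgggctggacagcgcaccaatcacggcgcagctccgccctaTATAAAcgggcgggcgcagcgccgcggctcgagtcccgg
H3C2: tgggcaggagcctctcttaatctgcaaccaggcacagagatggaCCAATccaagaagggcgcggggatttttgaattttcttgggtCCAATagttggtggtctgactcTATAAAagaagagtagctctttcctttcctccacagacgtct

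The H2BC21 window is chr1:149886673-149886822 on the minus strand, and the H2BC11 window is chr6:27132786-27132935, also on the minus strand. H2BC9 lies at chr6:26251474-26251623 and H2BC15 at chr6:27838429-27838578, both on the plus strand. The windows of H2AC6 (chr6:26124032-26124181, plus), H4C12 (chr6:27831551-27831700, minus), H1-4 (chr6:26156189-26156338, plus) and H3C2 (chr6:26032090-26032239, minus) complete the set. Promoters of 64 of the 70 genes matched the RefSeq table, and the others, H2AC12, H2BC12L, H3C11, H3C12, H4C1 and H4C3, are given by their peaks only.

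The depth behind the lists ranged from 12357450 tags after duplicate removal for CREBBP to 27885791 for EP300, with 37517450 in the input, and the lists held 23571 (OCT1) to 82569 (EP300) peaks on chromosomes 1 to 22 and X. Depth and antibody differ between the lists, so folds of different lists do not rank the proteins. Of 6 B cell genes, 5 had a peak in all 6 lists and PAX5 in 5. None of 5 T cell, 4 myeloid, 3 erythroid and 2 liver genes had peaks in all 6 lists, although CD3E had them in 5.

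Nearly the whole set was occupied by each protein. Peaks stood at 62 of the 70 genes for OCA-B, where 46.9% of all protein-coding genes had one, and at 63 for OCT2, where 41.5% did. OCT1 marked 59 genes (42.7% of all protein-coding genes), MED1 63 (34.2%), CREBBP 60 (31.5%) and EP300 61 (46.2%). A peak in each of the 6 lists was found at 59 of the 70 histone genes and at 22.2% of all protein-coding genes. No peak in any list was found at 5 histone genes and at 43.3% of all protein-coding genes.

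The 6 proteins differed in how high the histone genes stood among all their peaks. For each gene the peak with the highest fold enrichment over the control was taken, and its rank is the percentage of peaks in its own list with the same or a lower fold. MED1 peaks that reached histone genes were among the very strongest of that list. A peak in its top 5% by fold reached 61 of the 70 genes, against 1.54% of all protein-coding genes, and the median rank was 99.7. Many of these peaks were wide and shared, and the strongest of all 63 occupied genes were 32 distinct peaks. Among 49 occupied genes of known strand and at most 1 kb long, 9 had the strongest MED1 summit more than 1 kb before the start. Another 10 had it more than 1 kb past the end. OCA-B followed with 45 genes in its top 5% (3.6% of all protein-coding genes) and a median rank of 96.7, and OCT2 with 41 genes (2.34%) and 96.3. CREBBP had 15 genes there (0.858%) and OCT1 9 (2.15%), with median ranks of 90.6 and 66.5. EP300 had 1 gene in its top 5%, H4C12, where 1.68% of all protein-coding genes were, and a median rank of 76.0.

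The folds can be set beside those of all protein-coding genes occupied in the same list. The median highest fold over all 70 histone genes, with unoccupied genes below any fold, was 41.6 for MED1, and it was 6.08 over the 6537 protein-coding genes with a MED1 peak. The OCT2 medians were 27.9 at histone genes and 7.23 at occupied genes of any kind, those of OCA-B 20.4 and 7.61, and those of CREBBP 26.4 and 7.06. For EP300 they were 9.91 and 6.67. For OCT1 they were 6.95 and 6.64. Over the occupied histone genes alone, the same denominator as for the other genes, the OCT1 median was 9.03 (59 genes), that of EP300 10.8 (61 genes) and that of MED1 45.02 (63 genes).

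**Figure D1:**
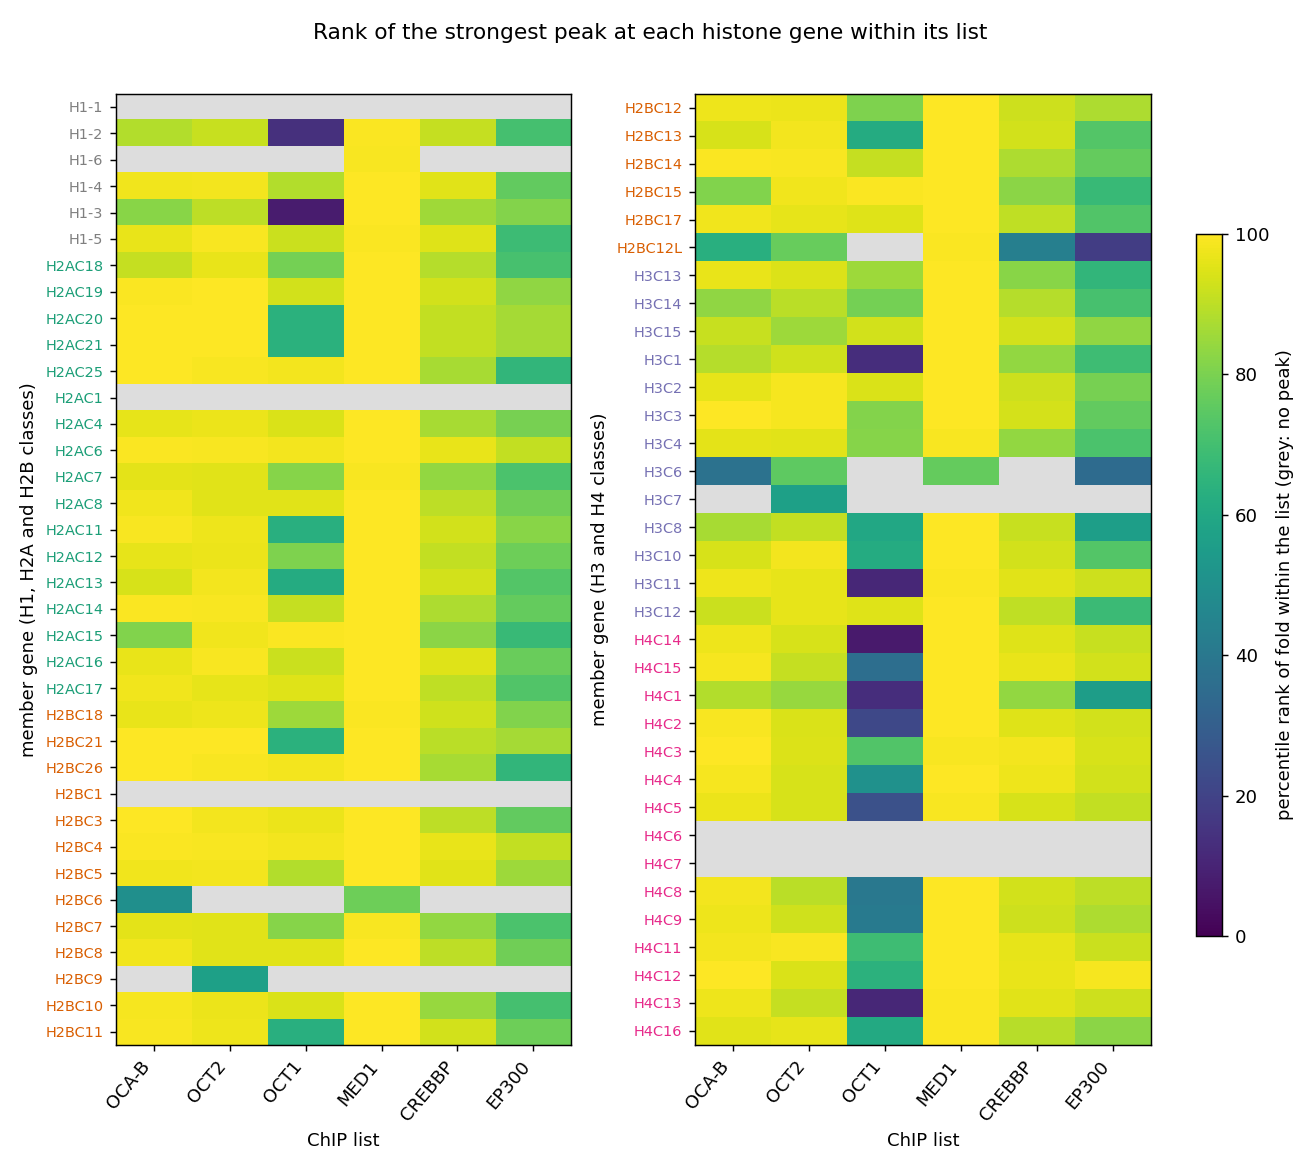
Percentile rank, within its own list, of the strongest peak by fold at each of the 70 histone genes (rows, coloured by class) in the 6 ChIP lists (columns); grey means that no peak was called within 1 kb of either gene end. The MED1 column is near 100 for 61 genes, the OCT1 column is low in the H4 rows, and H2AC1, H2BC1, H1-1, H4C6 and H4C7 are grey throughout.

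The rank of OCT1 depended on the measure. Ranked by pileup, the number of overlapping fragments at the summit, the median OCT1 rank over the histone genes was 92.8 in place of 66.5, and that of EP300 was 86.8 in place of 76.0. The ratio of pileup to fold, which grows with the background the peak caller divided by, had a median of 7.87 at the strongest OCT1 peaks of histone genes and 4.06 over the whole OCT1 list. It was raised in the same way in the other lists, for example 6.26 against 3.56 for OCA-B and 8.42 against 4.35 for EP300.

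H2A genes code for the core histone that pairs with H2B, and all but H2AC1 were occupied by all 6 proteins. Over the 17 H2A genes the median fold was 48.5 (MED1), 33.7 (OCT2), 23.3 (OCA-B), 12.6 (OCT1), 26.4 (CREBBP) and 10.3 (EP300). The highest OCT2 and MED1 folds of the class, 52.0 and 70.5, belonged to single peaks that H2AC20 and H2AC21 share with H2BC21 on chromosome 1, where the OCA-B fold was 36.4 and the OCT1 fold 6.70. The gene with the highest OCA-B fold was H2AC25 at 39.4, which lies on chromosome 1 outside the cluster and also had an OCT1 fold of 24.3. OCT1 reached its highest value among all 70 genes, 40.0, at a peak that H2AC15 shares with H2BC15. H2AC13, the gene with the lowest mean rank over the 6 lists among the 16, still had folds of 55.8 (MED1), 34.2 (OCT2), 16.7 (OCA-B), 6.47 (OCT1), 31.8 (CREBBP) and 9.04 (EP300).

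H2B genes had a similar profile, with more genes left out. Peaks in all 6 lists stood at 15 of the 19 genes. The medians over the class were 45.02 (MED1), 31.3 (OCT2), 23.3 (OCA-B), 10.1 (OCT1), 24.9 (CREBBP) and 9.04 (EP300). The gene highest for OCT2 and MED1 was H2BC21 (52.0 and 70.5), for OCA-B it was H2BC26 (39.4), and for OCT1 H2BC15 (40.0). The lowest mean rank among the 15 was that of H2BC13, which stands back to back with H2AC13 and has the same values through shared peaks.

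H2A and H2B stood highest for OCT1. An OCT1 fold of at least 10 was reached by 9 of 17 H2A and 10 of 19 H2B genes, by 4 of 13 H3 and 2 of 6 H1 genes, and by none of the 15 H4 genes. At H3C2 the summit of this peak was nearest to the gene's own start, 264 bp away, but for the other H3 and H1 genes in this count it was nearest to the start of a neighbour. The summit lay 83 bp from the start of H2BC18 for H3C13, 103 bp from that of H2AC19 for H3C15, and 106 bp from that of H2BC17 for H3C12. For H1-4 it lay 30 bp from the start of H2BC5, and for H1-5 205 bp from that of H2AC16. Among the 9 H2A genes the summit was nearest to the gene's own start at 3, and among the 10 H2B genes at 9. For H2AC6, H2AC8, H2AC14, H2AC17 and H2AC25 it was nearest to the start of the facing H2B gene. H2AC4 was counted through the H3C2 peak. OCT1 folds at the 13 occupied H4 genes ran from 3.39 at H4C14 to 7.70 at H4C3, with a median of 4.89 over the class, so the highest H4 value stayed below the median of H2A or H2B.

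H3 genes were intermediate. All 13 had an OCT2 peak, and 11 had peaks in all 6 lists. Class medians were 41.6 (MED1), 23.9 (OCT2), 14.8 (OCA-B), 8.68 (OCT1), 26.4 (CREBBP) and 8.37 (EP300). H3C3 was highest for OCA-B (36.9), OCT2 (37.6) and MED1 (69.5), and it shares its OCA-B and MED1 peaks with the neighbouring H2BC3. The highest OCT1 fold was 15.8 at H3C12, from the peak of the H2AC17 and H2BC17 promoters, whose summit lies 2493 bp from the nearer end of H3C12. H3C1 had the lowest mean rank among the 11, with an OCT1 fold of 3.75 beside an OCT2 fold of 20.8.

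H4 genes, for the most conserved core histone, stood out for the acetyltransferases. The EP300 median was 22.1 over the 15 H4 genes, where the other classes lay between 8.05 (H1) and 10.3 (H2A), and the CREBBP median was 38.0, where they lay between 23.6 (H1) and 26.4. The EP300 difference was seen in the strongest peak of each gene and not over all peaks. With each gene's strongest peak counted once, the medians were 22.9 for H4 (13 peaks) and 10.3 for H2A (15 peaks), but over all distinct peaks at the genes, weaker ones included, they were 8.06 and 8.002. At H4C12, whose promoter is printed above, EP300 reached 40.2, the highest of all 70 genes, OCA-B reached 42.3, also the highest, and OCT1 6.71. The highest CREBBP fold of the set was 53.2, at H4C3. H4C11 was highest of the class for OCT2 (40.3) and MED1 (55.8). The summit of this MED1 peak, however, lies 9028 bp from H4C11 and 42 bp from the start of H2BC14. H4C4 had a MED1 fold of 54.1 with its summit 26 bp from its own start. H4C1 had the lowest mean rank, with folds of 41.6 (MED1), 13.3 (OCT2), 12.6 (OCA-B), 3.75 (OCT1), 17.2 (CREBBP) and 5.95 (EP300).

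The opposite placing of EP300 and OCT1 at H4 genes was seen gene by gene. The EP300 rank was above the OCT1 rank at 13 of 13 H4 genes with peaks in all 6 lists, by a median of 46.2 percentage points and by at least 21.2. It was above the OCT1 rank at 4 of 16 H2A, 4 of 15 H2B, 3 of 11 H3 and 2 of 4 H1 genes, with medians of -9.95 for H2A, -9.98 for H2B and -8.18 for H3. The H1 median was 22.03, on the same side as H4, with a range over the 4 genes from -23.2 to 74.01. Ranked by pileup, the class medians of OCT1 were 73.3 for H4, 95.5 for H2A and 96.1 for H2B, and those of EP300 were 95.5 for H4, 85.9 for H2A and 86.8 for H2B, so H4 was again below H2A and H2B for OCT1 and above them for EP300.

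**Figure D2:**
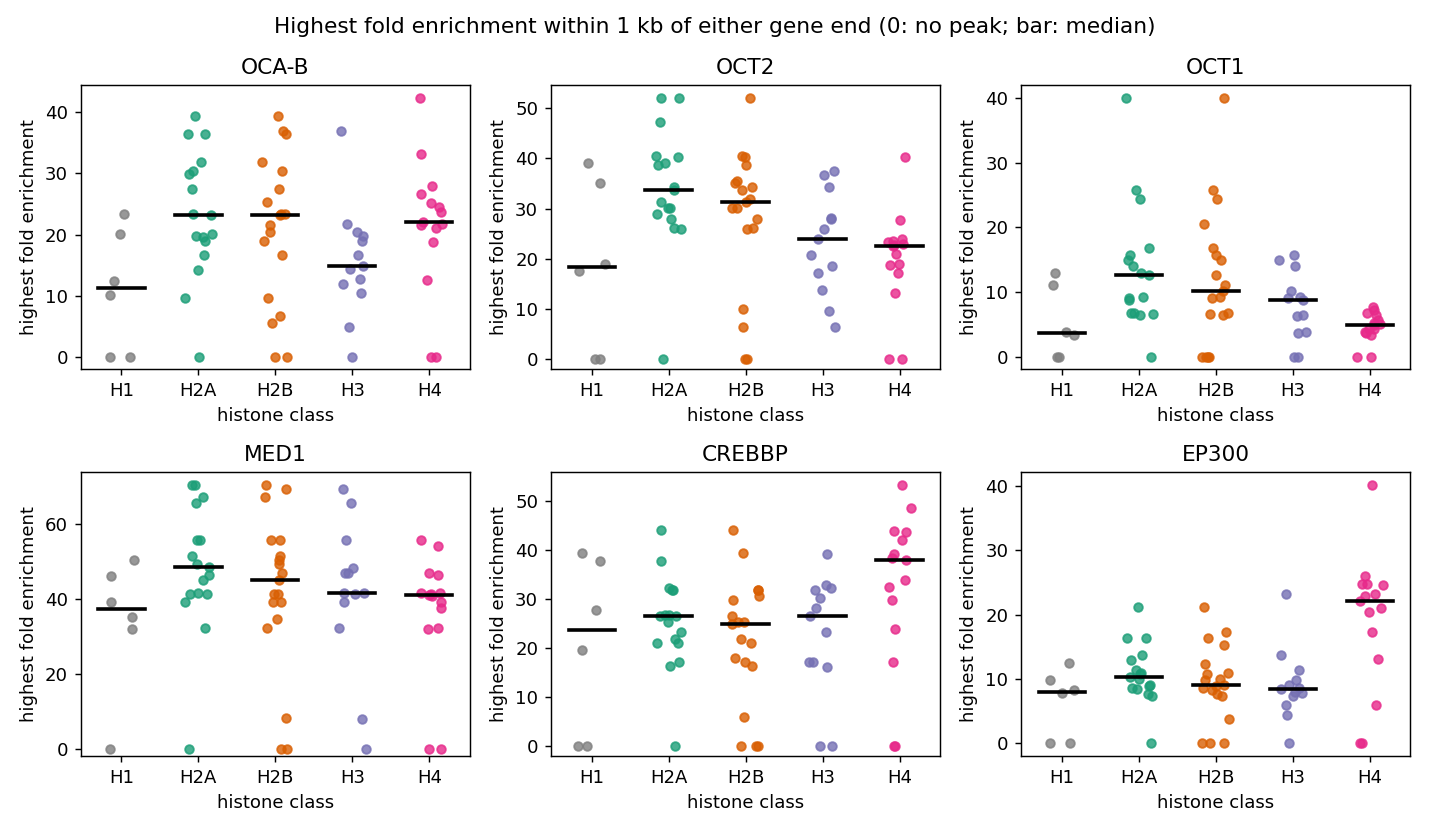
Highest fold enrichment within 1 kb of either gene end for each gene (points), by histone class and by ChIP list (panels, each with its own scale); 0 means no peak and the bar is the median over all genes of the class. OCT1 is lowest in H1 and H4 (medians of 3.60 and 4.89), and EP300 is highest in H4 (22.1).

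H1 genes, which code for the linker histone that binds DNA between nucleosomes, were the least evenly occupied. H1-2, H1-3, H1-4 and H1-5 had peaks in all 6 lists, H1-6 had peaks in the MED1 list alone and H1-1 had none. The medians over the 6 genes were 37.3 (MED1), 18.4 (OCT2), 11.3 (OCA-B), 3.60 (OCT1), 23.6 (CREBBP) and 8.05 (EP300). H1-4 had the highest OCA-B (23.3) and MED1 (50.5) folds, and H1-5 the highest OCT2 (39.1) and OCT1 (12.9) folds. The OCT1 peak of H1-5 is that of the H2AC16 promoter given above, and the OCA-B peak of H1-4 has its summit 14 bp from the start of H2BC5. In the 1 kb before its own start H1-4 had an OCA-B fold of 4.95. H1-3 had the lowest mean rank of the 4, with an OCT1 fold of 3.41 and a MED1 fold of 46.1.

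Genes without peaks were few and partly lay together. H2AC1 and H2BC1, the divergent pair that codes for the testis forms of H2A and H2B, stand alone at chr6:25726063-25727345, and no list had a peak at either. The nearest OCT2 peak was 7.58 kb from H2AC1 and the nearest EP300 peak 108 kb away, although both promoters hold an exact octamer. H1-1 had no peak at its ends, but the nearest peak was 1.497 kb (MED1) to 2.53 kb (OCT1) away. H4C6, H4C7, H3C7 and H2BC9 follow each other at chr6:26240393-26252075, inside the occupied part of the cluster. In these 11.7 kb the 6 lists held 1 peak, an OCT2 peak of fold 6.497 that counted for both H3C7 and H2BC9.

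The other genes missing from some lists had weak peaks or a peak that reached them from a neighbour. H1-6, the testis form of H1, had 3 MED1 peaks. The strongest (32.1) is a wide peak shared with H4C3 whose summit lies 3155 bp past the end of H1-6, and the weaker ones, of folds 6.70 and 6.49, counted for H1-6 alone. H2BC6 had OCA-B (5.64) and MED1 (8.17) peaks only, and H3C6 had folds of 4.92 (OCA-B), 9.62 (OCT2), 7.90 (MED1) and 4.45 (EP300). H2BC12L on chromosome 21 lacked OCT1 and had folds of 6.68 (OCA-B), 10.1 (OCT2), 6.04 (CREBBP) and 3.72 (EP300) beside a MED1 fold of 39.2. A peak that was not called may lie under the threshold at this depth, so these genes are those without a call.

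The large cluster of chromosome 6 and the smaller one of chromosome 1 had similar profiles once the unoccupied genes were set aside. All 11 genes of the chromosome 1 cluster and 45 of the 55 on chromosome 6 had peaks in all 6 lists. Over these 11 and 45 genes the median OCA-B folds were 22.04 and 21.7, and those of OCT2 were 28.9 and 30.1. OCT1 had medians of 8.68 and 9.13, CREBBP of 26.7 and 29.9, and EP300 of 13.7 and 10.3. For MED1 they were 48.3 on chromosome 1 and 41.6 on chromosome 6. With each gene's strongest peak counted once, the medians on chromosomes 1 and 6 were 21.2 and 21.6 for OCA-B and 13.7 and 10.8 for EP300. Over all distinct peaks they were 10.4 and 14.5 for OCA-B and 7.18 and 7.82 for EP300, so the order of the clusters for EP300 turned. With all 55 genes of chromosome 6 counted, the medians there were 41.4 (MED1), 26.2 (OCT2), 20.04 (OCA-B), 6.71 (OCT1), 26.4 (CREBBP) and 9.82 (EP300).

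Within a class the clusters differed more for some proteins. The 4 H2A genes of the chromosome 1 cluster had a median OCT2 fold of 49.7, where the 12 of chromosome 6 had 30.7, and an OCT1 median of 7.69, where those had 12.8. H2AC20 and H2AC21 share their OCT2 and OCT1 peaks, so these 4 genes give fewer than 4 separate values. The 2 H4 genes of chromosome 1 lay close to the 12 of chromosome 6 for EP300 (medians of 23.4 and 21.98) and for OCT1 (4.14 and 4.67). H3 had a higher OCT2 median on chromosome 6 (27.0) than on chromosome 1 (17.3). These groups hold 2 to 12 genes, and the ranges of the clusters overlapped in each of these comparisons.

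Reads from near-identical copies limit the chromosome 1 values. Promoters of H4C14 and H4C15 were 100% identical over 300 bases, those of H2AC18 and H2AC19 99.3% and those of H3C14 and H3C15 97.4%. How reads that match both copies were placed is not given in the sources used here. Folds nevertheless differed between copies: OCT2 was 28.9 at H2AC18 and 47.4 at H2AC19, and EP300 was 22.1 at H4C14 and 24.7 at H4C15.

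Of the genes outside the clusters, H2BC12L is described above. The divergent pair H2AC25 and H2BC26 had shared folds of 45.02 (MED1), 38.7 (OCT2), 39.4 (OCA-B), 24.3 (OCT1), 20.97 (CREBBP) and 7.37 (EP300). H4C16 on chromosome 12 had folds of 37.6 (MED1), 27.7 (OCT2), 18.8 (OCA-B), 6.41 (OCT1), 23.9 (CREBBP) and 13.1 (EP300). Its EP300 value was below the H4 median and its OCT1 value above it.

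MED1 covered the clusters in long blocks. Of the 269 kb from H1-1 to H4C8 (chr6:26017032-26285534, 32 genes), MED1 peaks covered 139 kb, and the other lists covered 31.5 kb (OCT1) to 66.4 kb (OCT2). In the 86.4 kb from H2BC13 to H2BC17 (chr6:27807479-27893891) MED1 covered 59.5 kb, and all 16 genes were in all 6 lists. The widest MED1 peak at a histone gene spanned 21396 bp and counted for 6 genes, H2BC13, H2AC13, H3C10, H2AC14, H2BC14 and H4C11. Wide peaks of 19599 bp at H3C1, H4C1, H4C2, H3C2 and H2AC4 and of 19482 bp at H2BC11, H2AC11, H2BC12, H4C9 and H2AC12 counted for 5 genes each. The median width of the 57 MED1 peaks at histone genes was 2888 bp, where the median of that list was 349 bp. Of the 105.3 kb of the chromosome 1 cluster, MED1 covered 44.9 kb and OCT1 16.5 kb.

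Because peaks are shared, genes are not separate observations. The genes occupied by OCA-B, OCT2 and MED1 were reached by 104, 105 and 57 distinct peaks, of which 43, 48 and 26 counted for more than 1 gene. No peak of a list other than MED1 counted for more than 3 genes.

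The MED1 values at histone genes were at the top of what the counting allows. Since 1 tag was kept per position and strand, the pileup cannot pass 2 tags for each base of the estimated fragment length. The strongest MED1 peaks at histone genes, each counted once, had a median pileup of 98.0% of this ceiling and reached 100%. The same medians were 57.9% (OCT2), 48.1% (OCA-B), 38.1% (CREBBP), 28.6% (EP300) and 19.5% (OCT1). The MED1 pileup therefore leaves little room to order these genes.

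**Figure D3:**
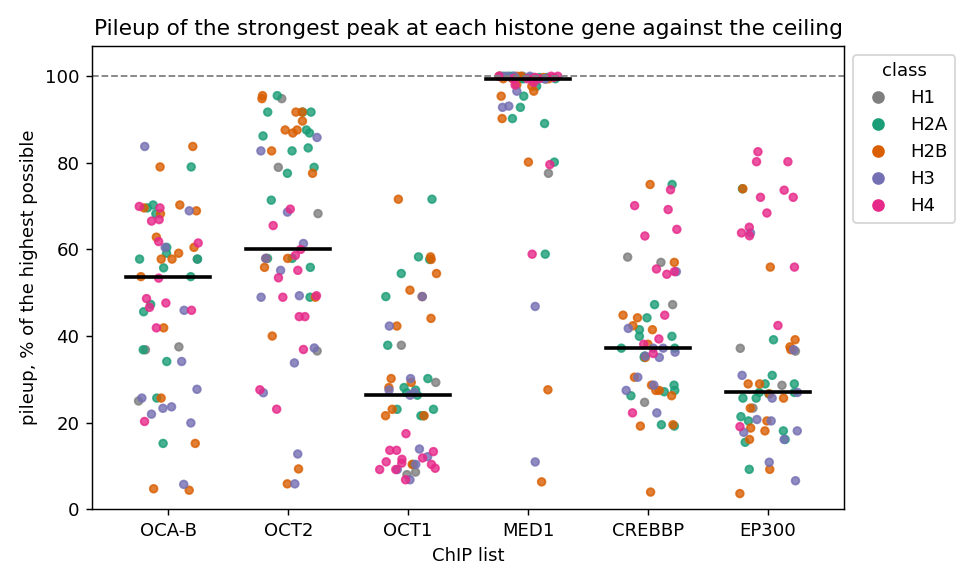
Pileup at the summit of the strongest peak of each occupied histone gene, as a percentage of the highest pileup possible in that library (dashed line at 100%), by ChIP list and coloured by histone class; the bar is the median over the genes plotted. MED1 values crowd at the ceiling, and H4 genes lie low in the OCT1 list and high in the EP300 list.

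The octamer followed the classes. An exact octamer was found in the promoter window, 250 bases before to 50 after the start, of 11 of 16 H2A and 14 of 18 H2B genes and of none of the 6 H1, 11 H3 and 13 H4 genes, where 1.77% of the 35116 promoters of the table hold one. The most downstream start was used where a gene has several, and an upstream start of H3C4 lies in the H2AC7 promoter and has its octamer. With 1 mismatch allowed, the counts were 14 for H2A, 16 for H2B, 2 for H3 and 2 for H4, and 17.1% of all promoters. The H2A genes with an exact octamer were H2AC1, H2AC4, H2AC6, H2AC7, H2AC8, H2AC11, H2AC14, H2AC16, H2AC17, H2AC20 and H2AC21, and its first base lay at positions -208 to -98 from the start. Windows of divergent genes overlap, so an octamer between them counts for both. In 8 H2B genes (H2BC8, H2BC9, H2BC10, H2BC11, H2BC12, H2BC14, H2BC18 and H2BC21) the octamer began 45 to 49 bases before the start and read ATTTGCAT each time, as in the first 3 promoters printed above. In H2BC1, H2BC3, H2BC4, H2BC6, H2BC7 and H2BC17 the exact octamer lay farther upstream, at positions -149 to -104. Of these, H2BC3, H2BC4, H2BC6 and H2BC17 also held an octamer with 1 mismatch near the start, at positions -50 to -46. H2BC5 and H2BC26, which have no exact octamer, held one with 1 mismatch at position -45. A match is a description of the letters, not a bound site.

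Other promoter letters were shared more widely. The TATA box was present in 42 of the 64 promoters (11.5% of all promoters) and CCAAT in 54 (34.6%), with H4 as the exception at 3 of 13. The H1 box was found in 6 of 6 H1 promoters and in 9 of all 64 (5.64% of all promoters). All motifs were searched on both strands.

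The summits of OCA-B, OCT2 and OCT1 lay close to the octamer, and those of the other proteins farther away. At promoters with an exact octamer the median distance from the strongest summit to the middle of the octamer was 22 bp in H2A and 25.5 bp in H2B genes for OCA-B. The OCT2 medians were 17.5 and 18 bp, and OCT1 had 25 bp in both classes. The classes are not separate here, since facing H2A and H2B genes mostly share an octamer and a summit. For OCT2 the distances were 12 and 11 bp at H2AC11 and H2BC11, and 58 and 57 bp at H2AC17 and H2BC17. The median distances in H2A and H2B genes were 103.5 and 108 bp for CREBBP, 121 and 108 bp for EP300, and 142.5 and 141.5 bp for MED1. Single MED1 distances ran from 4 bp at H2BC10 to 13239 bp at H2BC11. The strongest MED1 peaks at histone genes had a median width of 4323.5 bp and a median pileup of 98.0% of its ceiling. Their summits therefore mark a position less sharply than those of narrower peaks. At H2BC12 the OCT2 summit lay on the middle of the octamer, and at H2BC21 the OCA-B and OCT2 summits lay 8 and 19 bp from it. At H2BC21 the strongest OCT1 peak over the promoter had its summit 1417 bp from the octamer.

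**Figure D4:**
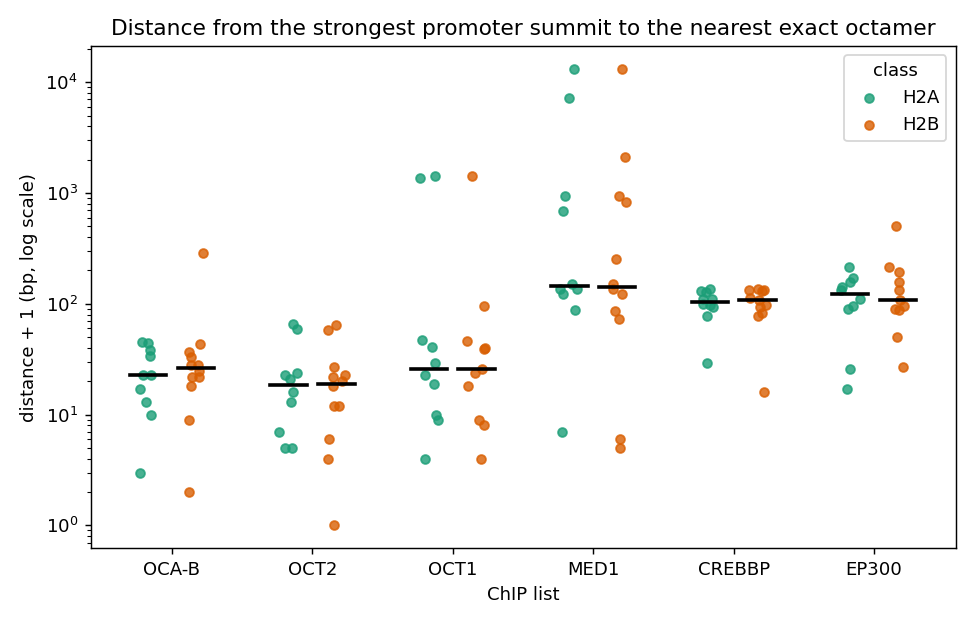
Distance in bp (plus 1, log scale) from the summit of the strongest peak over the promoter to the middle of the nearest exact octamer, for H2A and H2B genes in each ChIP list; points are genes and bars are medians. OCA-B, OCT2 and OCT1 medians lie between 17.5 and 25.5 bp, and those of MED1, CREBBP and EP300 above 100 bp. Facing H2A and H2B genes that share an octamer and a summit are plotted in both classes.

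An exact octamer was not always accompanied by a strong peak. H2BC9, whose printed octamer begins 49 bases before the start, had only the OCT2 peak of fold 6.497, with its summit 17 bp from the octamer, and H2BC6 had an octamer but no OCT2 or OCT1 peak. Conversely, promoters without an exact octamer were occupied: over the windows of H2AC25 and H2BC26 the OCA-B fold was 39.4 and the OCT2 fold 38.7. Both of these windows hold an octamer with 1 mismatch. Over the promoter window the median OCT2 fold of the 11 H2A genes with an exact octamer was 30.1 and that of the 5 without was 28.9. For H2B it was 28.8 in 14 genes with and 24.7 in 4 genes without, and the ranges overlapped in both classes. H2AC18, H2AC19, H2AC25, H2BC5 and H2BC26 held an octamer with 1 mismatch, and their OCT2 folds were 28.9 to 47.4. The remaining genes without an exact octamer held none with 1 mismatch either. Their OCT2 folds were 14.2 over H2AC13 and H2BC13 and 8.65 over H2AC15 and H2BC15. Occupied promoters with an exact octamer had OCT2 folds of 26.0 to 52.0 in H2A and 6.497 to 52.0 in H2B. Whether the octamer accounts for these folds was not tested.

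The OCT1 peak of fold 40.0 at H2AC15 and H2BC15 was not over their promoters. It lay 523 bp past the end of H2AC15, and over the promoter the OCT1 fold was 7.35, the OCT2 fold 8.65 and the OCA-B fold 8.90. The printed H2BC15 promoter holds neither an exact octamer nor an exact TATA box.

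Divergent H2A and H2B genes shared their peaks. Starts of 11 pairs were 194 to 248 bp apart, and in each list 10 of them, all but H2AC1 and H2BC1, had a peak over the gap. The strongest of these peaks had its summit inside the gap at 10 pairs in the OCT2 list, 9 in that of OCA-B, 7 in that of OCT1, 6 each in those of CREBBP and EP300 and 4 in that of MED1. Median folds over the 11 gaps were 27.5 (OCT2), 23.3 (OCA-B), 9.20 (OCT1), 41.4 (MED1), 16.4 (CREBBP) and 7.16 (EP300). At the H2AC6 and H2BC4 pair, whose octamer is printed above in the direction of H2AC6, these folds were 40.3, 31.8, 25.8, 41.6, 16.4 and 7.10 in the same order.

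The strongest peak did not stand at the same end of the gene in all classes. Among the 56 genes of known strand that are at most 1 kb long, the strongest OCA-B and EP300 summits of all 10 occupied H4 genes lay in the 1 kb before the start, as did 9 of 10 for CREBBP. For OCT2, by contrast, 8 of these 10 lay past the 3′ end, 7 of them with no other annotated start within 500 bp in the promoter table. In the 4 H4 genes with an OCT2 summit on both sides, the median fold was 14.2 before the start and 25.5 past the end, and the peak past the end was the higher in each. OCT2 peaks past the end were not restricted to H4. The strongest OCT2 summit lay there at 5 of 9 H3 genes, 4 of them with no other start near. An OCT2 summit of any strength lay within 1 kb past the end of 8 of 9 H3 and 14 of 15 H2A genes. These last counts include summits near the start of a neighbour.

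In H4 genes these downstream OCT2 summits stood 266 to 660 bp past the end. At H4C11 the summit was 266 bp past the end with a fold of 40.3, against 10.4 before the start. At H4C12 it was 409 bp past the end (23.3 against 20.8), at H4C9 332 bp (21.05 against 11.3) and at H4C16 286 bp (27.7 against 17.1), where another start lies 223 bp from the summit. H4C2, H4C5, H4C13 and H4C14 had their strongest OCT2 summit 391, 303, 362 and 660 bp past the end. H4C4 and H4C8 had theirs within 11 bp of the start.

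H1 genes had their strongest peaks downstream as well. For OCA-B, OCT2, CREBBP and EP300 all 4 occupied H1 genes had the strongest summit 0 to 1 kb past the 3′ end. The OCT2 summits were 297 bp past H1-3 (17.7), 422 bp past H1-5 (39.1), 463 bp past H1-2 (19.1) and 978 bp past H1-4 (35.2), the last of which lies 28 bp from the start of H2BC5. Over the promoter window of the 6 H1 genes 3 had an OCT2 peak (folds of 8.14 to 10.4) and 4 an OCA-B peak (4.95 to 20.04). A CREBBP peak was found at 3 (5.80 to 11.005) and an EP300 peak at 2 (3.81 and 6.13). At H1-2, H1-3 and H1-5 the OCA-B peak only reached the window, with its summit 1082, 1163 and 1153 bp after the start. At H1-4, with the fold of 4.95, the OCA-B summit lay 234 bp before the start. The printed H1-4 promoter lies in a window where no octamer was found.

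H2B genes differed from this for OCA-B and OCT2, and H2A genes did so for some proteins. For H2B the strongest OCA-B summit lay before the start at 10 of 11 genes, and for OCT2 at all 11, of which 3 were more than 1 kb away. Some of these summits lay past the 3′ end of the facing H2A gene. The OCT2 summits of H2BC8, H2BC13, H2BC15 and H2BC17 lay 295, 256, 564 and 341 bp past H2AC8, H2AC13, H2AC15 and H2AC17. The OCA-B summits of H2BC13 and H2BC15 lay 259 and 282 bp past H2AC13 and H2AC15. For CREBBP, 3 of 10 H2B genes had the strongest summit 0 to 1 kb past the end and 2 within 1 kb before the start. For H2A the strongest summit lay within 1 kb before the start at 10 of 15 genes for OCA-B, at 9 for OCT2 and at 11 for OCT1, and past the end at the others. For CREBBP and EP300, however, 8 of 15 H2A genes had the strongest summit 0 to 1 kb past the end. In each of these lists, 4 of the 8 had no other annotated start within 500 bp. The others stood near another start, such as the EP300 summit of H2AC21, 68 bp from the start of H2BC21. Within 1 kb before the start it lay at 6 H2A genes for CREBBP and at 3 for EP300. Of the 14 H2A genes with EP300 summits on both sides, the downstream peak was the higher in 11, summits near a neighbour's start included.

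**Figure D5:**
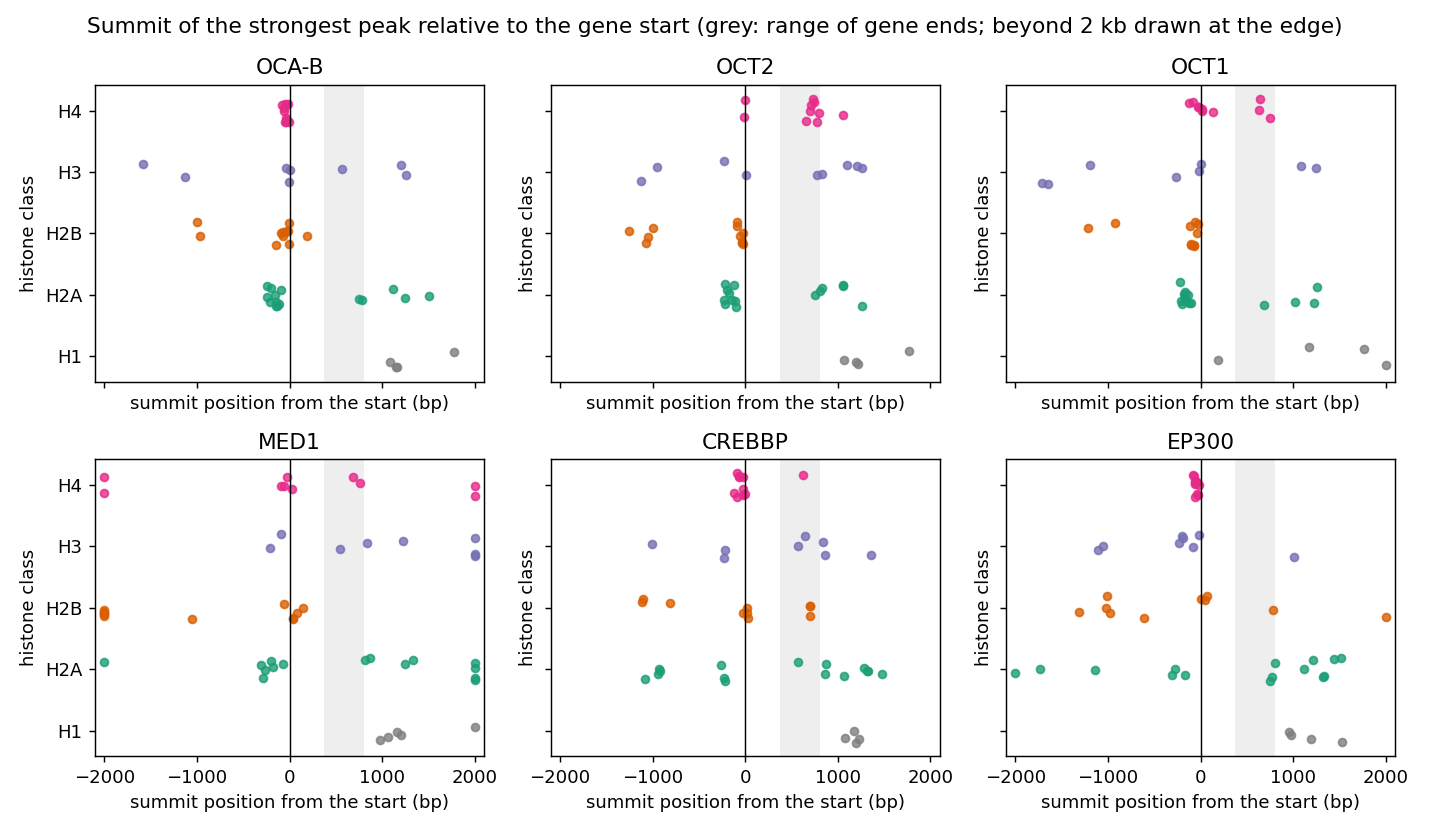
Position of the strongest summit relative to the annotated start (bp, gene direction to the right) for genes of known strand up to 1 kb long, by histone class (rows) and ChIP list (panels); the grey band covers the range of gene ends and points beyond 2 kb are drawn at the edge. H4 summits cluster at the start for OCA-B and EP300 and past the gene for OCT2, and H1 summits lie past the gene in most lists.

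Genes that supply or handle histones had lower median folds than the replication-dependent genes in each ChIP list except that of OCT1. For OCT1 the median was 5.40 for histone transcription and mRNA processing, 6.73 for chaperones and import and 8.20 for replication-independent histones. Over the 70 replication-dependent genes it was 6.95. In each of these groups a larger share than the 22.2% of all protein-coding genes had peaks in all 6 lists. Of 16 genes for histone transcription and mRNA processing, 8 had peaks in all 6 lists and CCNE1, a cyclin E gene, had none. Their median OCT2 fold was 4.83 and their median MED1 fold 4.23. The highest OCT2 folds in this list were at CDK2, the kinase that phosphorylates NPAT (20.3), and at LSM10 (10.6). LSM10 is a subunit of the U7 particle that processes histone mRNA, and its MED1 and EP300 folds were 35.2 and 37.9. NPAT had an OCT2 fold of 10.1 and a MED1 fold of 19.7, and SLBP, which binds the stem-loop, had an OCT1 peak (9.13) alone.

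Of 11 histone chaperone and import genes, 6 were in all 6 lists, with median folds of 5.98 for OCT2 and 6.93 for MED1. The highest OCT2 folds were 12.6 at RBBP4 and 10.4 at CHAF1A, a chromatin assembly factor subunit. Among 11 replication-independent histone genes, 7 were in all 6 lists and MACROH2A1 and MACROH2A2 in none, with median folds of 7.34 for OCT2 and 5.20 for MED1. The highest OCT2 folds were 26.4 at H2AJ and 19.3 at H3-3B, which codes for the replacement histone H3.3, and H2AX, the variant phosphorylated at DNA breaks, had an OCA-B fold of 21.1. All of these medians count genes without a peak as below any fold.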

How the data were processed

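Peak tables of 6 ChIP libraries were analysed. Per the submitters' processing notes, the tools included MACS2 2.1.1.20160309 and Bowtie2 2.3.2.2, with SAMtools 1.3.1 and CASAVA 1.8.2 (build hg38). As the file headers state, each library was called alone against the same input at a q threshold of 0.05, with tags of 51 bp and 1 tag kept per position. Among the tags read by the peak caller, the headers give a rate of duplicates of 0 for MED1 and CREBBP and up to 0.2 for the other libraries. This rate does not show whether duplicates had been removed before that step. The deposited values are those of the authors' peak caller: the pileup signal at the summit, −log10 p-values and q-values, and the fold enrichment, a ratio to the control. The folds describe and rank peaks within a list. Positions are those of the deposited tables.

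Gene positions, strands and promoters came from RefSeq GRCh38.p14. Peaks within 1 kb of either gene end were joined to genes, and counts and medians were set beside those of all protein-coding genes on chromosomes 1 to 22. The join was tested on simulated peaks. Python 3.11.15, NumPy 2.4.6, pandas 2.3.3, SciPy 1.17.1 and Matplotlib 3.10.9 were used. Members and lists were chosen with earlier results of these data known. Named genes are those missing from a list, the highest per class for OCA-B, OCT2, OCT1 and MED1, the lowest by mean rank, those outside the clusters, those with an exact octamer, and in the other lists the 2 highest for OCT2 and genes without peaks. NPAT, SLBP, H2AX and genes named for EP300, for CREBBP or for where their summits lie were chosen after their values were seen.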

Additional observations from a re-analysis of the deposited data

How the results depend on the processing

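Counts were taken as moved when they changed by more than 1.5 times, and medians when they left the 95% binomial interval of the median over genes, which for the 6 H1 genes is their whole range and so leaves large changes unmarked. By this measure 64 of 918 values computed for 156 results under other settings moved, and 35 differed from the reported value by more than 1.5 times. Among the latter, the H1 median OCT1 rank was 10.6 by fold and 71.4 by pileup, and that of H4 36.1 and 73.3. Over the promoter window the H1 medians were 4.07 (OCT2) and 2.90 (CREBBP) in place of 18.4 and 23.6, values between 0 and the lowest fold found. Windows of 500 bp and 2 kb, the gene body with its flanks, peaks with −log10 q of at least 5, lists shortened to the shortest and the start alone moved none of the 97 results each. Leaving out the duplicated genes of chromosome 1, or counting H2BC6-AS1, also moved none. With each gene's strongest peak counted once, also added after seeing the data, no median left its interval, but the H1 OCT1 median was 7.45 in place of 3.60, since unoccupied genes drop out. With the summit itself within 1 kb, MED1 marked 8 H4 genes, and its medians were 39.2 over all genes, 32.1 for H4 and 32.2 on chromosome 6. Over the promoter window, an alternative added after seeing the data, 2 H1 genes had EP300, CREBBP medians were 16.0 (H2A), 16.3 (H2B) and 15.1 (H3), and the EP300 median of H2A was 7.39.

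Counting each distinct peak once lowered medians, since it adds the weaker peaks of each gene. Over all peaks at histone genes they were then 39.3 (MED1), 18.8 (OCT2), 13.5 (OCA-B), 4.95 (OCT1), 17.2 (CREBBP) and 7.53 (EP300). For H2A they were 14.7 (OCA-B), 26.1 (OCT2), 17.2 (CREBBP) and 8.002 (EP300), for H2B 20.5 (OCT2), and for H4 16.0 (OCA-B) and 8.06 (EP300). In the chromosome 1 cluster they were 10.4 (OCA-B), 45.2 (MED1), 20.98 (CREBBP) and 7.18 (EP300), and on chromosome 6 14.5 (OCA-B), 20.3 (OCT2), 4.86 (OCT1), 17.2 (CREBBP) and 7.82 (EP300). The EP300 medians of H4 and H2A were thus close when all peaks were counted. With 1 mismatch, 2 H3 and 2 H4 promoters had an octamer. Distances from a peak's midpoint to the nearest gene end were 238.5 bp (OCA-B), 425 bp (OCT2), 1506 bp (MED1) and 576 bp (CREBBP), where summits gave 146, 265, 417 and 323 bp. Ranks by pileup moved 27 of 48 median ranks. No paired analysis was possible because each protein had 1 library and no result comes from a test.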
